A study of Mus musculus with 20 samples.

Results

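The voltage-gated sodium, potassium and calcium channel genes were taken as all genes whose symbol begins with Scn followed by a number and a or b, with Kcn, or with Cacn. This rule found 139 of 32285 listed genes. They are 14 sodium, 94 potassium and 26 calcium channel genes that code for protein, and 5 antisense RNAs named after a channel gene. The symbols also take in relatives without a voltage sensor, such as inward rectifiers, 2-pore channels and auxiliary subunits. The genes came from bulk RNA sequencing of 20 tumours of B16F10, a melanoma line of C57BL/6 mouse origin, grown in immunocompetent mice of that strain and labelled wild type. The 4 groups of 5 tumours received propafenone with an antibody against PD-1 (combination), propafenone (propafenone), the antibody against PD-1 (anti-PD-1), or control IgG (IgG). Dosing was intraperitoneal, from the time tumours measured about 100 mm3, and all tumours were excised on day 16. The labels do not give the drug dose, the mouse age, or whether any tumours shared an animal, and every group holds 1 tumour line, so p-values measure the spread between these tumours only.

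Channel genes code for pores that open on a change of membrane voltage, for the auxiliary subunits that carry those pores to the membrane and tune them, and for related pores opened by calcium, lipids or stretch. Sodium channels start the action potential, calcium channels turn voltage into a calcium signal, and potassium channels set the resting potential. Cells that fire no action potentials, melanoma cells and leukocytes among them, also use potassium channels to hold the driving force for calcium entry. Propafenone is an antiarrhythmic that blocks the sodium current of the heart and, at higher exposure, several potassium and calcium channels of the heart. Binding of a drug to a channel protein leaves no direct trace in RNA, so the comparisons below concern transcript levels alone.

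The promoters below are those of the sodium pore gene with the highest level, Scn8a, and of 3 skeletal muscle channel genes that are set against it in the results, Cacna1s, Scn4a and Cacng6. Each is a RefSeq window on GRCm38.p6 from 250 bases before to 50 bases after a gene start, written on the strand of the gene, with capitals marking a CAGCTG or CATGTG motif found on either strand. The windows lie at chr15:100870395-100870694 (plus strand) for the upstream start of Scn8a, chr1:136052561-136052860 (plus) for Cacna1s, chr11:106349341-106349640 (minus) for Scn4a and chr7:3424412-3424711 (plus) for Cacng6.
Scn8a: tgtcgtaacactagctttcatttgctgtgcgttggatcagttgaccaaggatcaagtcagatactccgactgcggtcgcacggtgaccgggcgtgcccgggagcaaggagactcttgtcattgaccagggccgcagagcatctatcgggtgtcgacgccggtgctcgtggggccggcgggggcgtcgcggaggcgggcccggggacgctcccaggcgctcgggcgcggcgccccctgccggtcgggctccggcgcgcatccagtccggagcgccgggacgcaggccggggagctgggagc
Cacna1s: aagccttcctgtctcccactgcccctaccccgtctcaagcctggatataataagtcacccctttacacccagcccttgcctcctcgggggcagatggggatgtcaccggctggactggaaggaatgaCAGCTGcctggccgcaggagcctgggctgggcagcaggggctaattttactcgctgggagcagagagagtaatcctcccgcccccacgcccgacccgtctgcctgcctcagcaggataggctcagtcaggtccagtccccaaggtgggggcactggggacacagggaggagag
Scn4a: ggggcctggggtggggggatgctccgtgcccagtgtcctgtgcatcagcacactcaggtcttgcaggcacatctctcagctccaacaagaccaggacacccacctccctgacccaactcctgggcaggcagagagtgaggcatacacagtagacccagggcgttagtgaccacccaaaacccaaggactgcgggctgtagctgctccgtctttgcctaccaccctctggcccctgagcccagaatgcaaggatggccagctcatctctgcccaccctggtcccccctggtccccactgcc
Cacng6: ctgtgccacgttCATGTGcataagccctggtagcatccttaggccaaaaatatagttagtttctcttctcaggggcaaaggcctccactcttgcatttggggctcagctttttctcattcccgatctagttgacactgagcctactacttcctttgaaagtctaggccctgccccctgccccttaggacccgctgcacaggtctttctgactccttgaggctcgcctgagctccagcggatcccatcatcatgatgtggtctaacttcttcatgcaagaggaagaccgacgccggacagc
Both motifs are forms of the E-box, the short site bound by the MyoD family in muscle and, in the CATGTG form, by Mitf in melanocytes. A CAGCTG was found in the window of Cacna1s and a CATGTG in that of Cacng6, and neither motif was in the windows of Scn8a and Scn4a. Over all 32851 promoter windows of that length 16.3% held CAGCTG, against 26.8% of the 138 windows of the 102 channel genes that were matched, and 2 of the 10 windows of the muscle channel list held it. CATGTG was in 14.2% of all windows and in 4.35% of the channel windows. A match here describes letters in a window and not a bound site.

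Most channel genes were near or below detection in these tumours, and 3 genes carried most of the signal. TPM, a transcript abundance per length, averaged at least 1 over the 20 libraries for 18 of the 139 genes (12.9%), against 38.6% of all listed genes. A total of 6 genes reached 10 TPM, 54 reached 0.1 TPM, and 20 had no count in any library. The mean levels of all 139 summed to 253 TPM, which is 0.0253% of the total, and Kcnab2, Scn8a and Kcnn4 made up 63.7% of that sum. Potassium channel genes held 68.1% of it, sodium channel genes 22.3% and calcium channel genes 9.46%. Per library the sum was 265 ± 13.9 TPM in combination tumours, 240 ± 14.1 TPM in propafenone tumours, 252 ± 12.6 TPM in anti-PD-1 tumours and 253 ± 17.8 TPM in IgG tumours (mean ± SD, n = 5 each). Libraries held 56 to 64.5 M counts, so a gene at 0 in a library lay under a floor of 3 counts, or 0.0465 to 0.0536 CPM (counts per M counts of the library), for counting error only. This floor takes each count as 1 read; how many counts a fragment gives is not known, and the floor is higher by that factor where it is above 1.

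**Figure D1:**
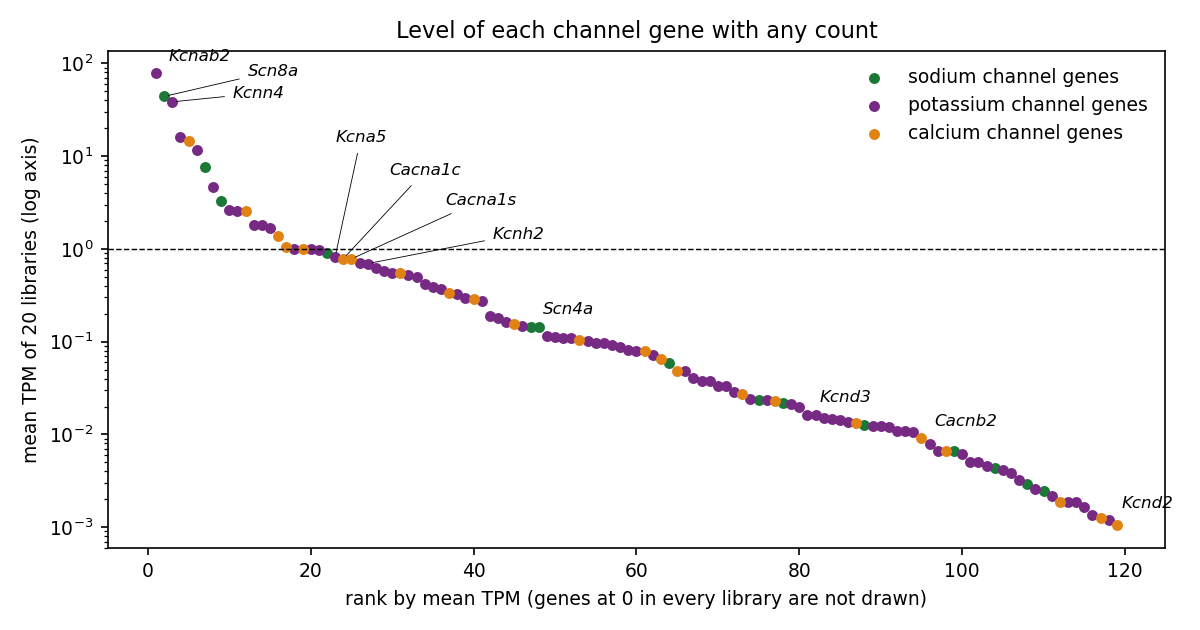
Mean TPM over 20 libraries (vertical log axis) of the 119 channel genes with any count, ranked from high to low (horizontal axis) and coloured by channel family, antisense RNAs with the potassium family. The dashed line is 1 TPM and has 18 genes above it.

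The line of 1 TPM fell among genes of nearly equal level. Cacnb4, a calcium channel beta subunit of brain, averaged 1.06 TPM and Kcnmb4, an auxiliary subunit of the large-conductance calcium-activated potassium channel, 1.01 TPM, just inside it. Cacng1, a gamma subunit of the muscle calcium channel, averaged 0.999 TPM and Kcnd1, a pore of fast inactivating potassium current, 0.992 TPM, just outside. For the edgeR test, 62 of the 139 genes passed the filter on low counts and 77 did not. A gene that is high in 1 group alone can pass that filter, so the 62 do not stand for all channel genes.

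The sodium channel pores were led by Scn8a, a neuronal channel that is present in the membrane of neurons and also inside some cells without action potentials. It measured 37.9, 39.7, 43.1, 46.9 and 43.8 TPM in combination tumours 1 to 5, 51.1, 43.6, 38.8, 45.6 and 35.0 TPM in propafenone tumours, 50.4, 37.4, 49.8, 48.0 and 48.4 TPM in anti-PD-1 tumours, and 55.9, 48.2, 40.6, 37.1 and 41.7 TPM in IgG tumours. The 4 groups overlapped over most of their range, and the log2 fold change of combination over IgG was 0.05 ± 0.068 (SE, edgeR adjusted p = 0.68). On TPM with limma the same difference was -0.07, so the direction differed between the fit on counts and that on TPM. Scn1a, the pore of inhibitory neurons, averaged 3.29 TPM and Scn2a, a pore of excitatory neurons, 0.907 TPM. The other 7 sodium pore genes were at or below 0.145 TPM, the level of the muscle pore Scn4a. Markers of whole neurons were near 0, with Snap25 at 0 in all 20 libraries and Syt1 at 0.0101 TPM, while Tubb3 stood at 84.8 TPM. Melanocyte genes were abundant, as the label melanoma implies, with Dct at 5212 TPM on average and none of 9 markers called in combination over IgG.

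Among potassium channel genes Kcnab2, the cytoplasmic beta subunit of shaker-type channels, was the most abundant. It measured 73.6, 73.2, 69.9, 70.5 and 71.6 TPM in combination tumours, and 85.5, 80.5, 96.8, 83.3 and 89.2 TPM in IgG tumours. Every combination tumour was below every IgG tumour, yet the log2 fold change of -0.38 ± 0.113 missed the threshold (edgeR adjusted p = 0.056). Over all genes tested, 7.21% had combination libraries wholly below IgG libraries in CPM, and of the 62 channel genes 2 did, Kcnab2 and Kcnk2, while 0 of 62 lay wholly above, against 4.72% of all genes. Kcnk2, a 2-pore channel opened by stretch and lipids, spanned 2.01 to 3.55 TPM in combination tumours and 3.55 to 7.07 TPM in IgG tumours and did not pass (-0.90 ± 0.432, adjusted p = 0.21). For Kcnab2, propafenone tumours lay at 71.4 to 93.6 TPM and anti-PD-1 tumours at 61.5 to 90.4 TPM, overlapping both the combination and the IgG tumours. DESeq2 and limma voom passed Kcnab2 in combination over IgG (adjusted p = 0.042 and 0.049), and without anti-PD-1 library 1 or 2 it also passed in edgeR (adjusted p = 0.045 and 0.014), as it did when only both of these groups were fitted (0.0065).

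Voltage-gated potassium pore genes were low, and all 40 together held 3.26% of the channel TPM, against 16.3% for calcium- or sodium-activated pores and 8.22% for inward rectifiers. Of the 40, 2 averaged at least 1 TPM and 9 were at 0 in every library. Kcnq5, a pore of the slow M-type current, averaged 2.61 TPM, and Kcnq1, the pore of the slow cardiac current that also serves epithelia, 1.70 TPM. Kcne3, the auxiliary subunit that holds Kcnq1 open in epithelia, measured 15.5 to 17.6 TPM in combination tumours, 3.04 to 11.8 TPM in propafenone tumours, 3.55 to 15.1 TPM in anti-PD-1 tumours and 3.65 to 14.5 TPM in IgG tumours. Its combination tumours lay above all IgG tumours in TPM, but not in CPM, and it did not pass the test (0.62 ± 0.410, adjusted p = 0.37).

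The inward rectifier Kcnj13, a potassium channel of pigment and transport epithelia, was the fourth channel gene by level. It measured 23.7, 14.4, 29.4, 28.0 and 21.0 TPM in combination tumours, and 8.11, 14.7, 3.73, 19.6 and 6.97 TPM in IgG tumours. Both ranges met between 14.4 and 19.6 TPM, and the log2 fold change of 1.02 ± 0.475 did not pass (edgeR adjusted p = 0.20). Kcnj13 lies within Gigyf2 on the opposite strand, with 623 bases of shared exon and Gigyf2 at 26.9 TPM. The strand setting of the counting is not given in the sources used here, so reads of Gigyf2 cannot be told apart from reads of Kcnj13. Kcnj8, the pore of the vascular ATP-sensitive channel, averaged 2.57 TPM. Its combination tumours stood at 1.72, 1.51, 3.24, 1.19 and 1.60 TPM and its IgG tumours at 2.50, 2.24, 3.62, 2.72 and 4.08 TPM. Only combination 3 reached into the IgG range, and the change of -0.84 ± 0.303 did not pass (adjusted p = 0.10), except without combination 3 (-1.14, adjusted p = 0.046).

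Calcium channel genes were present mainly as auxiliary subunits. None of the 10 pore genes averaged 1 TPM, and Cacna1c, the pore of heart and smooth muscle, was the highest of them at 0.786 TPM. Cacnb3, a cytoplasmic beta subunit, averaged 14.6 TPM, Cacng7, a gamma subunit that in brain partners glutamate receptors, 2.56 TPM, and Cacnb1, the beta subunit of skeletal muscle, 1.38 TPM. In combination over IgG Cacnb3 gave -0.05 ± 0.255 (edgeR adjusted p = 0.93), with the opposite sign under voom, library totals and TPM (0.02, 0.03 and 0.11).

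**Figure D2:**
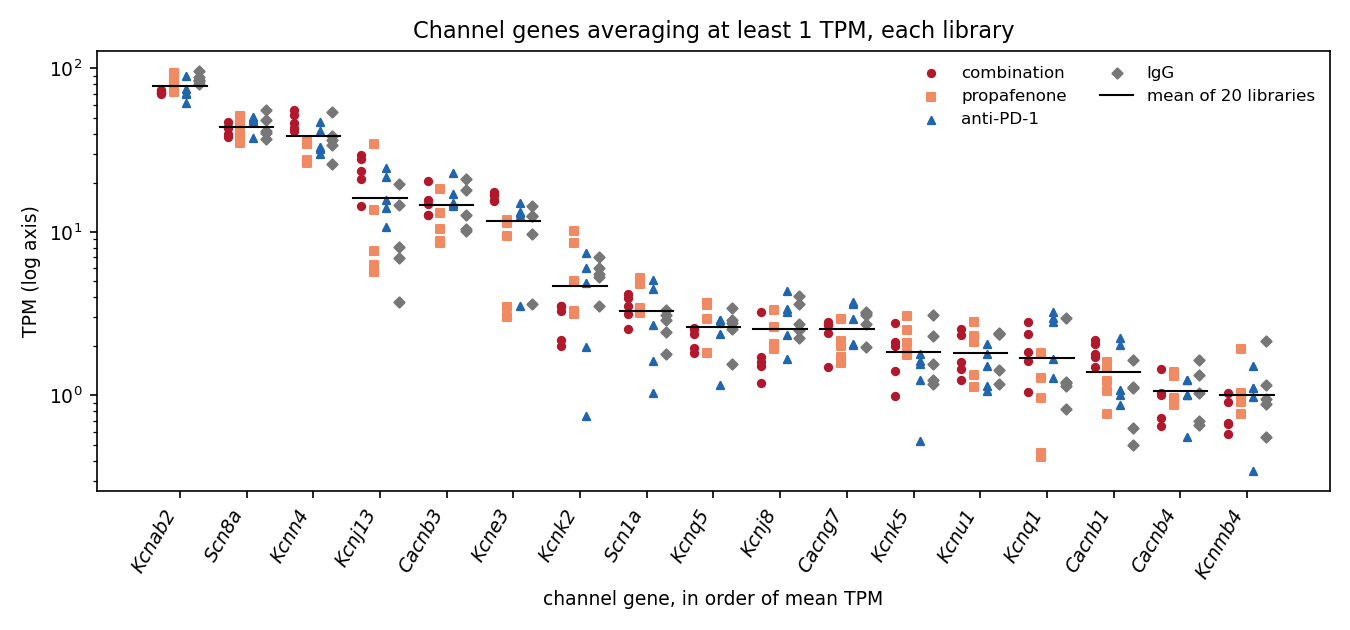
TPM (log axis) of channel genes that averaged at least 1 TPM, in each of 5 combination, propafenone, anti-PD-1 and IgG libraries, with black lines at the mean of 20 libraries. The groups overlap for most genes, while for Kcnab2 the combination points (69.9 to 73.6 TPM) lie below the IgG points (80.5 to 96.8 TPM).

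The channels that propafenone is known to act on, and their cardiac partners, were mostly at the low end. Of 16 genes in this list 2 averaged at least 1 TPM, Kcnq1 among them, and 7 were too low to test. Kcnj3 and Kcnj5, which form the acetylcholine-gated channel of the atria, had no count in any library, and Kcnd2, a pore of the transient outward current, had 4 counts in 1 propafenone library. Kcnd3, its partner in heart, Kcne1, the cardiac partner of Kcnq1, and Cacnb2, the cardiac beta subunit, were each at 0 in 1 or more libraries of every group, and none passed the filter. Of 6 heart muscle markers Myl7 was at 0 in all 20 libraries and Ryr2 in 19, Myh6, Nppa and Tnni3 averaged 0.0245, 0.135 and 0.147 TPM, and Tnnt2 averaged 3.45 TPM and was above 0 in all 20. Their summed TPM was 1.38 to 6.48 in combination tumours, 1.41 to 9.01 in propafenone tumours, 1.96 to 8.56 in anti-PD-1 tumours and 1.52 to 5.78 in IgG tumours, and the 1 tested, Tnnt2, was not called in combination over IgG (-0.36, edgeR adjusted p = 0.75).

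Kcnh2, the pore of the rapid cardiac potassium current and present in many tumour lines, measured 0.480 to 0.984 TPM in combination tumours, 0.307 to 1.01 TPM in propafenone tumours, 0.510 to 1.34 TPM in anti-PD-1 tumours and 0.255 to 1.08 TPM in IgG tumours. Kcna5, the atrial and vascular shaker pore, averaged 0.829 TPM. Among the 9 tested genes of the list edgeR called none in any of the 6 comparisons, where 0.0% of all genes were called in propafenone over IgG and 4.88% in combination over IgG. In propafenone over IgG their median log2 fold change was 0.07, against 0.00 over all 15875 genes tested, with 5 of 9 above 0 (50.9% of all genes were), and their adjusted p-values ran from 0.92 to 0.98. In combination over IgG the median was 0.44, the value of Kcnj2, with 7 of 9 above 0 (48.2% of all genes were) and the highest at Kcnj11. Kcnj11, Kcnj2 and Cacna2d1 also stand in the muscle list below, so both lists share values.

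In combination over IgG, edgeR called 2 of the 62 tested channel genes, both higher, at a Benjamini-Hochberg adjusted p under 0.05. Of all genes tested 4.88% were called in this comparison, 2.24% higher and 2.63% lower, so the share of channel genes called (3.23%) lay near that background. The 2 genes were Kcnk6, a 2-pore channel through which macrophages lose potassium during inflammasome activation, and Cacng6, a gamma subunit of the skeletal muscle calcium channel. At an unadjusted p under 0.05 there were 12 channel genes (19.4%), against 23.6% of all genes. The count of 2 fell to 0 without IgG 1, 3 or 5, propafenone 1, 2 or 5, anti-PD-1 4 or 5, or combination 1, 2, 4 or 5, and to 1 without IgG 4, propafenone 4 or anti-PD-1 3. It was also 2 without combination 3, then Cacna1s and Kcnj8, and without anti-PD-1 1, then Kcnk6 and Kcnab2. It was 6 without IgG 2, 4 without anti-PD-1 2, and 4 with DESeq2, which added Cacna1s and, on the lower side, Kcnab2. The shares of all genes called in these other fits are not given here.

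Kcnk6 measured 0.864, 0.449, 0.928, 0.415 and 1.0 TPM in combination tumours, 0.383, 0.387, 0.121, 0.629 and 0.324 TPM in propafenone tumours, 0.420, 0.169, 0.294, 0.302 and 0.422 TPM in anti-PD-1 tumours, and 0.265, 0.401, 0.175, 0.323 and 0.104 TPM in IgG tumours. In TPM every combination tumour was above every IgG tumour, combination 4 narrowly, while in CPM the groups overlapped. The log2 fold change was 1.41 ± 0.394 over IgG (adjusted p = 0.044) and 1.08 ± 0.389 over anti-PD-1 (adjusted p = 0.45). The call over IgG was lost without IgG 1, 3 or 5, propafenone 1, 2 or 5, anti-PD-1 4 or 5, or any 1 combination library (adjusted p up to 0.12). It was also lost with no filter (0.058) and without the 5 libraries above 1000 CPM of the haemoglobin gene Hbb-bs, called blood-rich here, none of them from a combination tumour (0.075).

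Macrophage markers were higher beside Kcnk6. In combination over IgG 6 of 10 were called higher and all 10 were above 0, and their summed TPM was 315 to 699 in combination tumours, 90.7 to 302 in propafenone tumours, 184 to 351 in anti-PD-1 tumours and 55.8 to 286 in IgG tumours. Over the 20 libraries the log2 CPM of Kcnk6 followed the macrophage score, the mean centred log2 CPM of those markers, with Pearson r = 0.77 (permutation p = 8e-05, adjusted over 124 relations 0.0014) and Spearman rho = 0.72 (0.00055, adjusted 0.0085). It was 0.77 without the 2 libraries farthest from the median score, and 0.64 after group means were removed. Kcnk6 also followed the skeletal muscle score (r = 0.60, rho = 0.69, permutation p = 0.0045 and 0.0012, adjusted 0.028 and 0.012), with r = 0.67 without the 2 farthest libraries and 0.29 after group means were removed. Of the 62 tested channel genes 9 passed with the macrophage score by Pearson's r at an adjusted p under 0.05, Kcnj13 (r = 0.73, rho = 0.68, permutation p adjusted 0.0036 and 0.013) and the muscle pore Scn4a (r = 0.70, rho = 0.61, adjusted 0.0059 and 0.036) among them. After group means were removed r was 0.56 for Kcnj13 and 0.45 for Scn4a, and it ran from 0.14 to 0.75 over the 8 with r above 0. The permutations ran over all 20 libraries without regard to group, so their p-values take in differences between groups. The share of all genes that would pass was not computed. Fibroblast markers were also higher in combination over IgG, with 3 of 6 called and all 6 above 0. Their summed TPM was 204 to 503 in combination tumours and 49.1 to 188 in IgG tumours, and Kcnk6 was not set against them. The part of macrophages in the change of Kcnk6 was not tested, and in bulk tissue more cells of a type and more RNA per cell cannot be told apart. Kcnk13, a 2-pore channel of microglia and macrophages, and Scn7a, a sodium-sensing pore, named after their values were seen, also followed the score (r = 0.74 and 0.76) and did not pass the test between groups (adjusted p = 0.24 and 0.38).

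Cacng6 had few counts in every group and the fewest in IgG tumours. It measured 0.296, 0.138, 0.0422, 0.291 and 0.248 TPM in combination tumours, 0.0656, 0.131, 0, 0.0670 and 0.204 TPM in propafenone tumours, 0.147, 0, 0.10, 0.175 and 0.135 TPM in anti-PD-1 tumours, and 0, 0.0575, 0, 0 and 0 TPM in IgG tumours. The sums were 61 counts over the combination libraries, 28 over propafenone, 34 over anti-PD-1 and 4 over IgG libraries, all 4 of them in IgG 2. Combination 3 lay below IgG 2 and the other combination tumours above it. The fitted log2 fold change over IgG of 3.64 ± 1.05 (adjusted p = 0.049) rests on those 4 counts and on the prior count of the fit, and without IgG 2 it became 6.56. The call held without IgG 2, propafenone 3 or anti-PD-1 2 and was lost without any other single library (adjusted p up to 0.13), as with RLE size factors (0.056), library totals (0.057), no filter (0.099) and without the 5 blood-rich libraries (0.11).

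**Figure D3:**
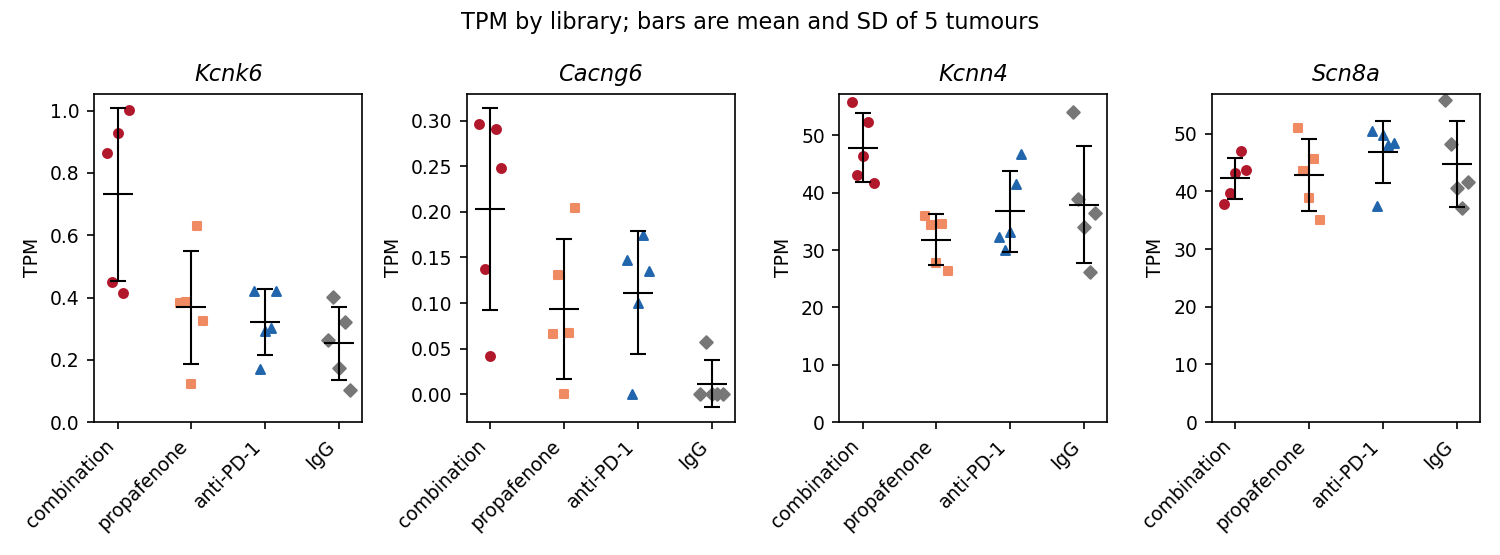
TPM in each library for Kcnk6 and Cacng6, called higher in combination over IgG, Kcnn4, called higher in combination over propafenone, and Scn8a, not called. Points are tumours of the combination, propafenone, anti-PD-1 and IgG groups, and bars are the mean and SD of 5; Cacng6 has a single IgG tumour above 0.

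All tested skeletal muscle channel genes had a fold change above 0 in combination over IgG, and 1 of them passed the test. The list holds 11 genes, 10 of them tested and 1, Cacng6, called in combination over IgG. All 10 were above 0, with a median log2 fold change of 1.49, against -0.01 over all genes tested, of which 48.2% were above 0. The 52 tested channel genes outside the list had 22 above 0 and a median of -0.08. In anti-PD-1 over IgG all 10 were also above 0 (median 0.86, none called), where 49.7% of all genes were, and in propafenone over IgG 7 of 10 were (median 0.44, none called), against 50.9%. Those 3 comparisons share the IgG libraries. The list was drawn up with earlier results of these data known, and its genes were measured in the same tumours, so the 10 are not 10 separate results.

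Cacna1s, the pore and voltage sensor that couples excitation to contraction in skeletal muscle, showed the pattern by tumour. It measured 1.15, 1.55, 0.165, 2.05 and 1.25 TPM in combination tumours, 0.398, 0.695, 0.823, 0.592 and 0.595 TPM in propafenone tumours, 0.758, 0.407, 0.971, 1.23 and 0.833 TPM in anti-PD-1 tumours, and 0.446, 0.626, 0.578, 0.370 and 0.153 TPM in IgG tumours. Apart from combination 3, each combination tumour was above every IgG tumour. The log2 fold change of combination over IgG was 1.44 ± 0.460 and missed the threshold (edgeR adjusted p = 0.068), but it passed with DESeq2 (0.021) and without combination 3 (0.033), IgG 2 (0.049) or anti-PD-1 2 (0.036).

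Scn4a, the sodium pore that carries the muscle action potential, measured 0.255, 0.418, 0.105, 0.165 and 0.276 TPM in combination tumours, and 0.0210, 0.185, 0.0506, 0.0850 and 0.0397 TPM in IgG tumours. Combination 3 and 4 lay below IgG 2, and the change of 1.54 ± 0.583 did not pass (edgeR adjusted p = 0.11), except without IgG 2 (0.049). Its beta subunit partner Scn4b was listed at 0.0701, 0.197, 0, 0.122 and 0 TPM in combination tumours at 0.0192 and 0.0276 TPM in anti-PD-1 tumours 1 and 4 and 0 in the other 3, and at 0 in every propafenone and IgG tumour, and it was not tested. Cacng1 measured 2.28, 1.38, 0, 1.97 and 1.12 TPM in combination tumours, and 0, 2.08, 0, 0 and 0.0839 TPM in IgG tumours. Here 1 IgG tumour, IgG 2, was as high as the combination tumours, the change was 1.53 ± 1.10 (adjusted p = 0.42), and without IgG 2 it was 5.33 (adjusted p = 0.021).

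The muscle ATP-sensitive pore Kcnj11 measured 0.347, 0.209, 0, 0.550 and 0.261 TPM in combination tumours, and 0, 0.0698, 0, 0 and 0.0343 TPM in IgG tumours. Combination 3, at 0, was again the 1 combination tumour within the IgG range (3.15 ± 1.16, edgeR adjusted p = 0.11). Cacnb1 stood at 0.72 ± 0.271 (adjusted p = 0.11, and 0.035 without IgG 2), and Cacna2d1, the alpha2delta subunit of muscle and other calcium channels, at 0.92 ± 0.356 (0.12). The rectifiers Kcnj12 and Kcnj2 stood at 1.58 and 0.44, and the muscle shaker pore Kcna7, which reverses without the 5 blood-rich libraries (-0.35) and without combination 4 (-0.13), stood at 0.35.

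Markers of skeletal muscle fibres, none of them among the channel genes taken here, moved with most of these genes. Of 19 markers 10 were called higher in combination over IgG and all 19 were above 0. Their summed TPM was 769, 952, 135, 899 and 708 in combination tumours, 114 to 220 in propafenone tumours, 71.1 to 554 in anti-PD-1 tumours, and 89.4, 220, 105, 102 and 77.2 in IgG tumours. Combination 3 was the low tumour and IgG 2 the high one of their groups, as for Cacna1s, Cacng1 and Kcnj11. The marker Eno3 averaged 79.6 TPM in combination, 82.2 in propafenone, 69.8 in anti-PD-1 and 68.2 in IgG tumours. It was not called in combination over IgG (0.10, edgeR adjusted p = 0.71), and the lower sums of IgG tumours rest largely on it. Across the 20 libraries Cacng6 followed the muscle score with r = 0.90 and rho = 0.90 (permutation p = 1e-05 for each, the smallest the permutations can give, adjusted over 124 relations 0.00025 and 0.00062), and Cacna1s with r = 0.88 and rho = 0.88 (likewise 1e-05, adjusted 0.00025 and 0.00062). Without the 2 libraries farthest from the median score r was 0.92 for Cacng6 and 0.85 for Cacna1s, and after group means were removed it was 0.82 and 0.86. Of the 62 tested channel genes 12 passed with the muscle score by Pearson's r at an adjusted p under 0.05, 9 of them with r above 0. The share of all genes that would pass was not computed. These permutations also ran over all 20 libraries without regard to group. Within the muscle list Kcnj2 (r = 0.19, adjusted permutation p = 0.56), Kcna7 (0.45, 0.18) and Cacnb1 (0.55, 0.060) did not pass by r. Of these, Cacnb1 alone passed by rho (0.66, adjusted 0.013). Scn8a did not pass by either (r = 0.38, rho = 0.37, permutation p = 0.098 and 0.11, adjusted 0.27 and 0.28).

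With the muscle score as a covariate, no channel gene was called in combination over IgG. Cacng6 then stood at 0.23 (edgeR adjusted p = 0.95), and the sign turned for Cacna1s (-0.74), Scn4a (-0.12), Cacng1 (-2.84), Kcnj11 (-1.97), Kcnj12 (-2.42) and Kcna7 (-2.03). Kcnab2, which ran against the score (r = -0.81, rho = -0.78, permutation p = 2e-05 and 0.00013, adjusted 0.00041 and 0.0027, r = -0.81 without the 2 farthest libraries and -0.67 after group means were removed), stood at -0.02 with it, and Kcnk6 at 0.97 (0.36). The score itself differs between the groups, so the fit with it removes part of any difference between them.

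**Figure D4:**
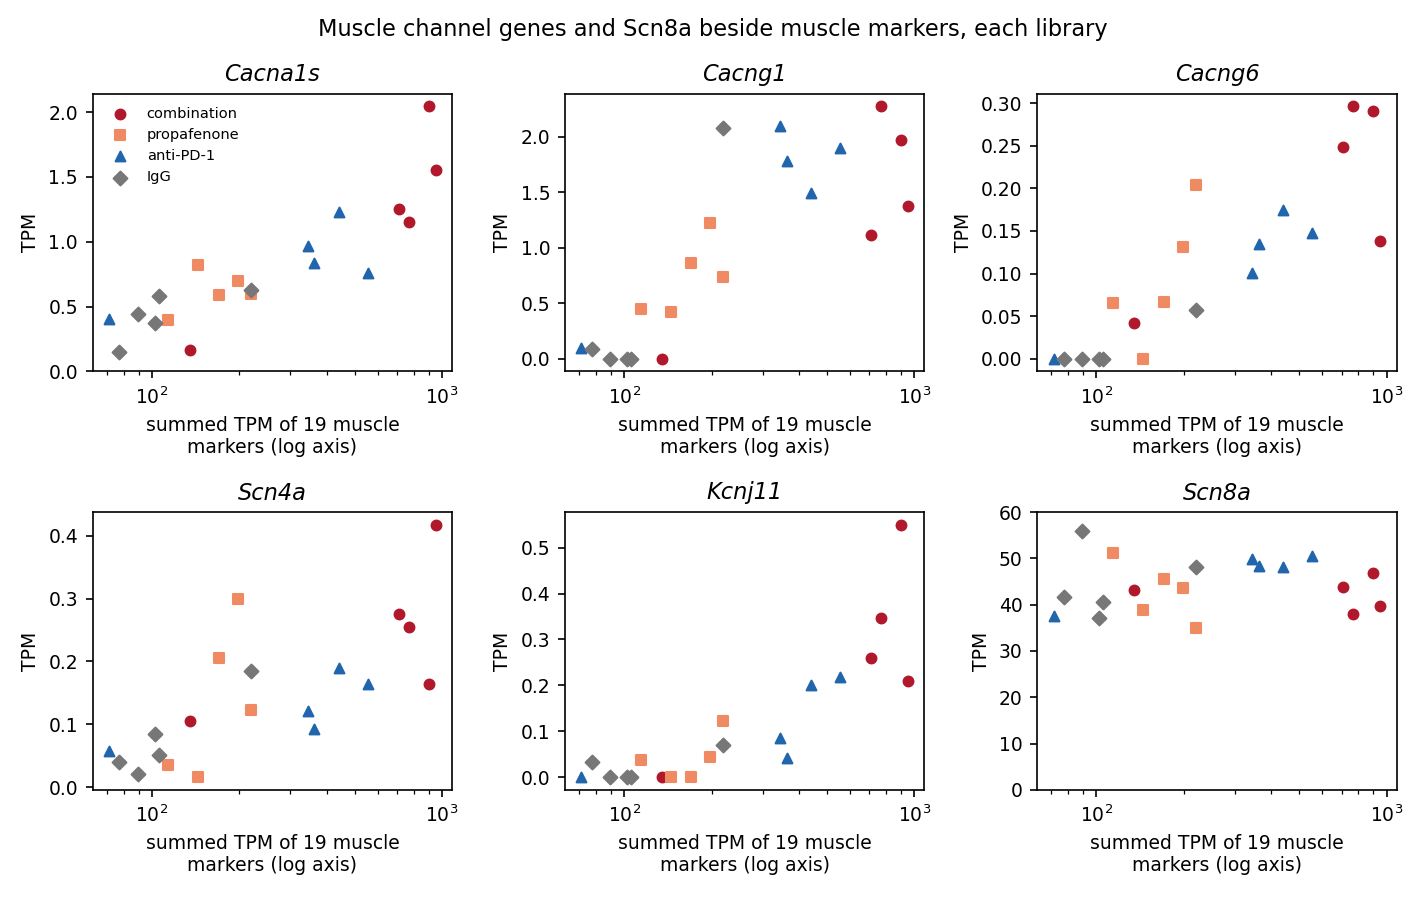
TPM of 5 muscle channel genes and of Scn8a (vertical axes) in each library against the summed TPM of 19 skeletal muscle markers (horizontal log axis). None of the markers is among the channel genes taken here, and the sum includes Eno3, with group means of 68.2 to 82.2 TPM. Combination 3, with 135 TPM of markers, is the lowest combination tumour for each of the 5 muscle channel genes, and the other 4 combination tumours, with 708 to 952 TPM, overlap tumours of other groups for each gene, while Scn8a stays between 35.0 and 55.9 TPM.

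In combination over propafenone 1 of the 62 channel genes was called, Kcnn4, the intermediate-conductance calcium-activated potassium channel of T cells, red cells and many tumour cells. Of all genes tested 3.88% were called in this comparison, 1.67% higher and 2.21% lower. At an unadjusted p under 0.05 there were 13 channel genes (21.0%), against 23.2% of all genes. Kcnn4 measured 55.8, 43.1, 46.4, 52.3 and 41.7 TPM in combination tumours, 36.0, 34.5, 27.7, 34.6 and 26.3 TPM in propafenone tumours, 32.3, 30.0, 33.1, 41.6 and 46.8 TPM in anti-PD-1 tumours, and 54.0, 38.8, 34.0, 26.2 and 36.5 TPM in IgG tumours. Every combination tumour was above every propafenone tumour, whereas the IgG tumours spanned both groups. The log2 fold change was 0.55 ± 0.147 over propafenone (edgeR adjusted p = 0.042), 0.23 ± 0.146 over IgG (0.35) and 0.30 ± 0.146 over anti-PD-1 (0.52).

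The call of Kcnn4 was lost without propafenone 1, 2, 3 or 5, or without any 1 combination library (adjusted p 0.055 to 0.15), and its fold of 1.47 is under a minimum of 1.5. It was also lost without the 5 blood-rich libraries (0.054) and with the muscle score as covariate (0.090). In propafenone over IgG Kcnn4 stood at -0.33 ± 0.147 (adjusted p = 0.91). The interaction, the combination effect minus the sum of both single effects, was 0.62 ± 0.207 for Kcnn4 (unadjusted p = 0.0070, adjusted p = 0.99). It was the 1 channel gene of 62 at an unadjusted p under 0.05 in that contrast, where 3.04% of all genes were.

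Of the remaining genes in combination over propafenone, Kcnab3, a further cytoplasmic beta subunit, stood at -0.87 ± 0.260 (edgeR adjusted p = 0.059), and Cacna2d1 at 1.18 ± 0.359 (0.061). In CPM, combination libraries lay wholly above propafenone libraries for 4 of 62 channel genes (3.65% of all genes did), Kcnn4, Kcne3, Kcnk3 and Cacnb1, and wholly below for 1, Kcnab3 (4.88% did). Kcne3 stood at 1.11 ± 0.414 (adjusted p = 0.12), Kcnk3 at 1.82 ± 0.689 (0.12) and Cacnb1 at 0.43 ± 0.269 (0.34). Kcnab3 shares 147 bases of exon with its antisense RNA Kcnab3os, which was listed at 0.0969 TPM. DESeq2 called 4 channel genes in this comparison, voom of limma 2 and limma on log2(TPM + 1) values 1, and edgeR called 5 without propafenone 4, 2 without anti-PD-1 2 and 0 without propafenone 1, 2, 3 or 5 or any 1 combination library. The shares of all genes called in these other fits are not given here.

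The 4 other contrasts gave no channel gene an edgeR adjusted p under 0.05, and no other gene either (0.0% of 15875 called). No channel gene was called there by DESeq2, by voom or by limma fitted to TPM. In propafenone over IgG 8 of 62 channel genes (12.9%) had an unadjusted p under 0.05, against 4.75% of all genes. The smallest belonged to Kcnk3, an acid-sensitive 2-pore channel (-2.22 ± 0.690, adjusted p = 0.91), which had 0 to 8 counts in propafenone and 4 to 48 counts in IgG libraries. Kcnn3, a small-conductance calcium-activated channel, stood at -2.59, with 0 to 5 counts in propafenone and 0 to 21 counts in IgG libraries. Cacng6 stood at 2.58, with 0 to 12 counts in propafenone and 0 to 4 counts in IgG libraries. Scn2a stood at 0.52 and Kcnq1ot1, the antisense RNA of the Kcnq1 locus, at 0.58, and each of these genes had an edgeR adjusted p = 0.91. In anti-PD-1 over IgG 4 had an unadjusted p under 0.05 (7.58% of all genes did), led by Cacng6 (2.87, adjusted p = 0.53), Kcnab3 (-0.60) and Cacna1s (1.04, both 0.61). In combination over anti-PD-1 2 did, Kcnk6 and Kcnj8 (-0.83, adjusted p = 0.45), against 9.78% of all genes.

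**Figure D5:**
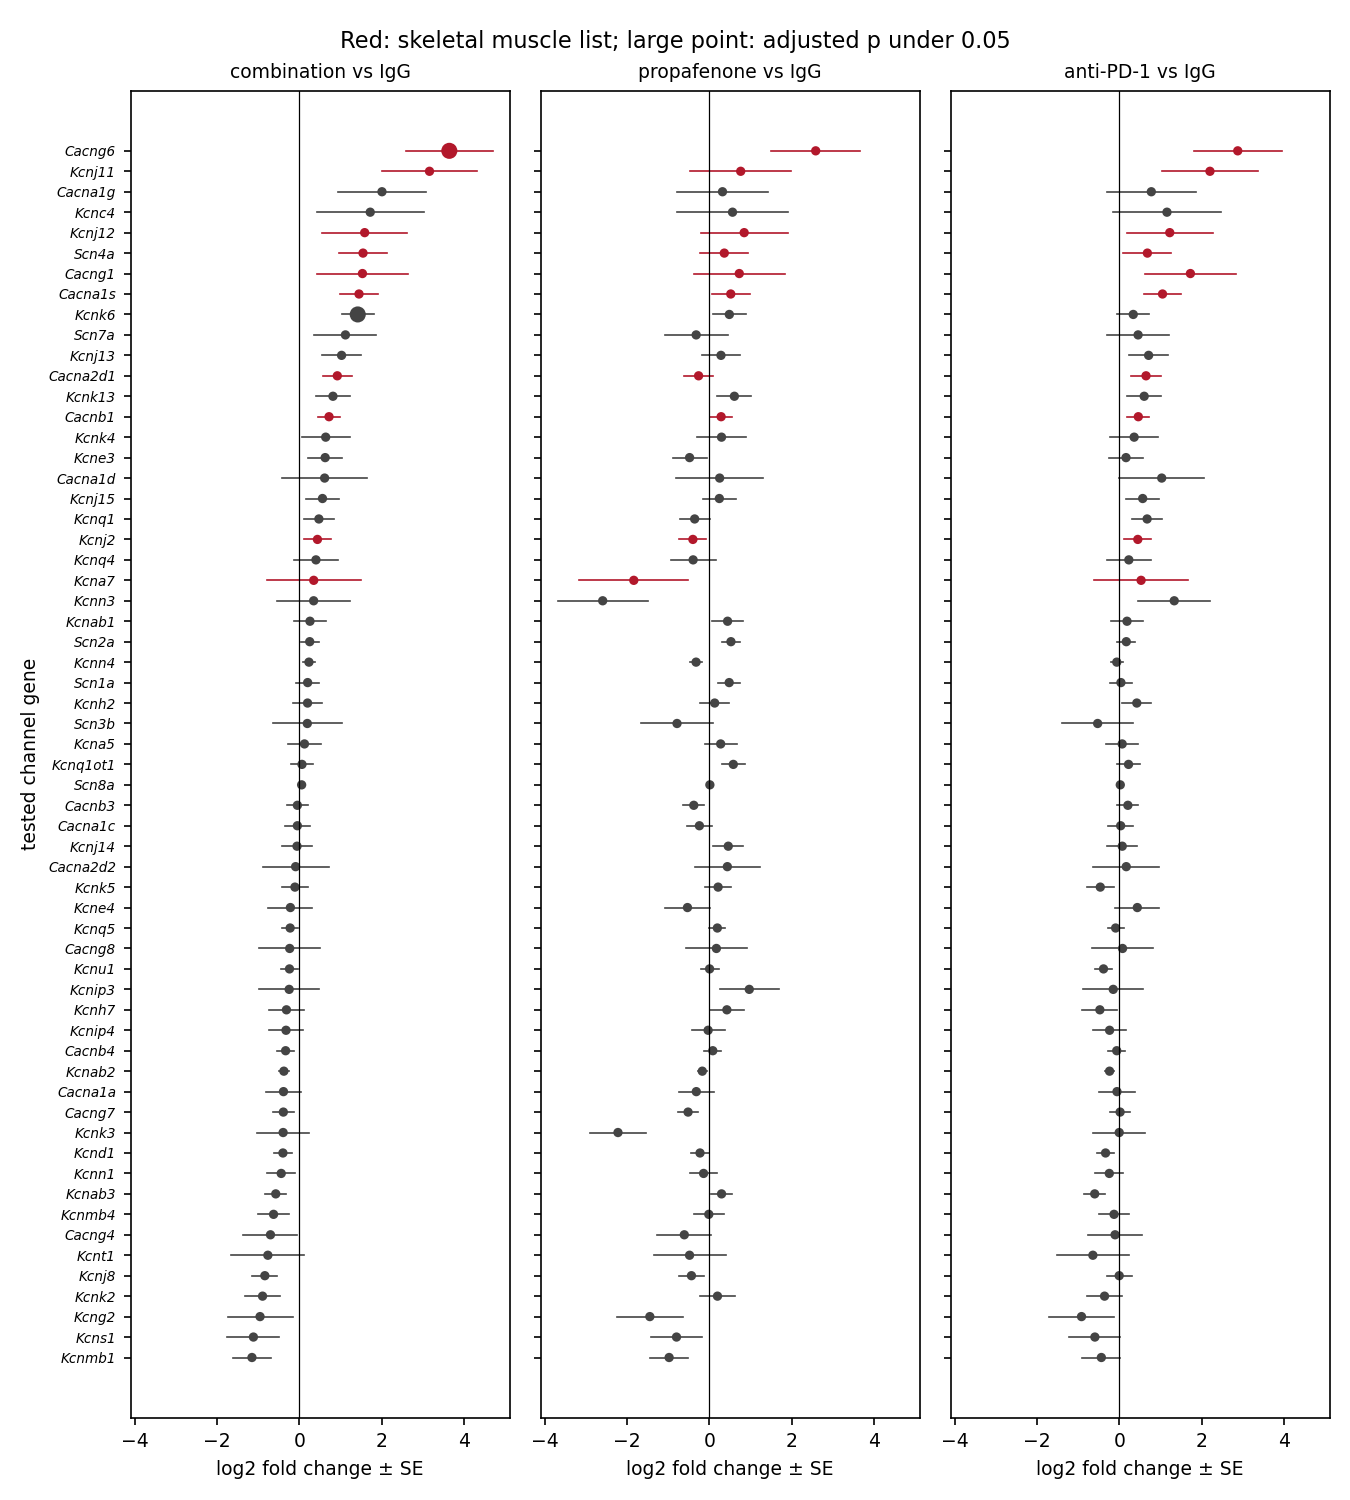
Log2 fold change ± SE (horizontal axes) of tested channel genes in combination, propafenone and anti-PD-1 tumours, each over IgG tumours, ordered by the combination value. Red marks the 10 tested skeletal muscle channel genes, all right of 0 in combination and anti-PD-1 tumours, and large points mark the 2 called genes, Cacng6 and Kcnk6.

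The other lists held few changes in combination over IgG, where 4.88% of all genes tested were called and 48.2% were above 0. Of 8 leukocyte channel genes 7 were tested, Kcnk6 was called and 5 were above 0 (median 0.44, against -0.01 over all genes). That median is the value of Kcnj2, which also stands in the cardiac, muscle and vascular lists. Of 11 vascular wall channel genes 9 were tested, none was called and 3 were above 0 (median -0.22). Kcnmb1, the smooth muscle subunit of the large-conductance channel, stood lowest at -1.15 ± 0.470 (edgeR adjusted p = 0.14), and none of 8 smooth muscle and pericyte markers was called, with 4 of 8 above 0. Of 9 neuronal sodium channel genes 4 were tested, none was called, and all 4 lay between 0.05 and 0.25.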

How the data were processed

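Expression was measured by bulk RNA sequencing of 20 tumours, prepared with a SMARTER mRNA kit per the labels' protocols. The authors deposited expected counts for each gene, not scaled and stored as whole numbers; 4 and 8 are frequent among low values, and how many counts a fragment gives is unknown. The authors also deposited TPM, a level per transcript length with a common column total, used here for levels. Tools named per the submitters' processing notes were HISAT2 2.2.1, FastQC and SAMtools 1.9, and the build was GRCm38, also written mm10. The counting tool, annotation release and strand setting are not given in the sources used here. Coordinates and gene types come from GENCODE on GRCm38, in which all 139 channel genes and 32158 of 32285 genes were found. All columns were used. Some channel genes are not reported here.

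The main test was edgeR 4.0.16 (R 4.3.3) on all genes kept by filterByExpr (15875), with TMM factors, 1 coefficient for each of the 4 groups, a robust quasi-likelihood dispersion and 16 residual degrees of freedom, and p-values were adjusted by Benjamini-Hochberg over them. The biological coefficient of variation was 0.252. CPM uses TMM-scaled totals, and the SE is the fold change divided by the root of the F statistic. Alternatives were DESeq2 1.42.0, limma 3.58.1 (voom, and log2 of TPM plus 1 or 0.1), other scalings, no filter, counts divided by 4, a replicate block, a muscle score covariate and left-out libraries. The fit was tested on simulated data. No 2 libraries of a group were copies, with a lowest chi-square per degree of freedom of 3.90 over 40 pairs, on counts divided by 4. Depth was 56 to 64.5 M counts per library.

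The members and lists were chosen with earlier results of these data known. Genes named are the 10 with the highest mean TPM, called genes, the 3 smallest p in each direction where fewer than 3 were called, the channels propafenone acts on, and the muscle channel list. Other genes above or near 1 TPM were named after their values were seen.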

Additional observations from a re-analysis of the deposited data

Results flagged for a closer look

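Dixon's criterion was applied to log2 CPM, with a small constant added, of the channel genes named here that averaged at least 0.1 TPM. A tumour stood apart from the other 4 of its group in 14 of 120 groups tested (11.7%). Chance flags about 1 in 20 groups (6 of 120). All values are in CPM, with the other 4 tumours of the group in parentheses. Among muscle channel genes, Cacna1s was 0.491 in combination 3 (3.23 to 4.06) and 0.538 in anti-PD-1 2 (2.17 to 3.39). Cacng1 was 0.0768 in anti-PD-1 2 (0.867 to 1.31) and 1.26 in IgG 2 (0 to 0.0737). Cacng6 was 0.0645 in IgG 2, with the other 4 at 0, and Kcnj2 was 0.629 in IgG 2 (1.77 to 2.11). Where 4 values are tied any other value is flagged, so the flag of Cacng6 was set by the 4 counts of IgG 2. In summed muscle markers combination 3 (135 TPM) and anti-PD-1 2 (71.1 TPM) were the lowest of their groups and IgG 2 (220 TPM) the highest of its group. Kcnj2 went the other way, being low in IgG 2.

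IgG 2 was also low in Kcne3 at 1.76 (5.42 to 8.16) and in Cacng7 at 2.03 (3.19 to 3.60). IgG 3 was high in Scn2a at 1.58 (0.904 to 1.07). Kcne3 was 1.95 in anti-PD-1 3 (6.53 to 8.19), and Kcnh2 was 2.50 in anti-PD-1 2 (1.10 to 1.28). Cacng7 was 1.43 in combination 1 (2.30 to 2.72), Cacna1c was 2.17 in propafenone 2 (3.53 to 4.09), and Kcnq5 was 6.01 in propafenone 4 (9.40 to 10.6).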

How the results depend on the processing

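The count of 2 channel genes called in combination over IgG became 4 with DESeq2, 1 with RLE size factors, with library totals and with counts divided by 4, and 0 with no filter and with the muscle score as covariate. Leaving out 1 library gave 0 to 6. In combination over propafenone the count of 1 became 4 with DESeq2 and without the blood-rich libraries, 2 with voom, with counts divided by 4 and with the muscle score, and 0 at 1.5-fold, with 0 to 5 without 1 library. The other 4 contrasts gave 0 in every fit run. No count of called genes in this section is set beside the share of all genes called in the same fit. A shift in such a count need not be particular to channel genes. The count of 18 genes at 1 TPM was 54 at 0.1 TPM and 6 at 10 TPM.

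Replicate numbers did not pair the libraries (30 same-numbered pairs, mean r = -0.01, range -0.48 to 0.52, 7 of 20 best with their own number). With a replicate block the counts were 0 in combination over IgG and 2 in combination over propafenone, and Kcna7 was -0.014.

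Of 1698 comparisons over 54 results of single genes, 1583 kept direction and side of the threshold, 51 lost and 29 gained a call, and 35 reversed. For combination over IgG, log2 fold changes that reversed were, with the muscle score, Cacna1c 0.28, Cacna1s -0.74, Cacnb3 0.56, Cacng1 -2.84, Kcna7 -2.03, Kcnj11 -1.97, Kcnj12 -2.42, Kcnj8 0.091, Scn1a -0.28, Scn4a -0.12 and Scn8a -0.048, and in anti-PD-1 over IgG Cacna1s -0.34 and Kcnj11 -1.26. With library totals Cacna1c was 0.024 and Cacnb3 0.032. With voom Cacna1d was -0.71 and Cacnb3 0.016. On log2(TPM + 1) and log2(TPM + 0.1), Cacnb3 was 0.11 and 0.12 and Scn8a -0.068 and -0.069. Without the blood-rich libraries Cacnb3 was 0.42 and Kcna7 -0.35. Without 1 library, Cacna1c ran from -0.26 to 0.19, Cacna1d from -0.066 to 1.06, Cacnb3 from -0.18 to 0.15, Kcna5 from -0.27 to 0.32 and Kcna7 from -0.13 to 0.71. The causes were not tested. The 77 genes under the filter on low counts were not tested, 20 of them with no count in any library, and Cacng6 rests on 4 counts in the IgG libraries.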
